A study of Homo sapiens with 4 samples.

Results

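Interferon-stimulated genes were followed one by one in RCC4 cells in which PML was silenced. The members were a list of 44 genes known to respond to interferon, picked by name and compared between shPML and shCtrl within each replicate, and 43 of the 44 had a row among the 59050 genes counted. The remaining 1 listed gene was not analysed here. Of the 43 genes, 24 were well expressed, with a mean of at least 10 CPM (counts per 1000000 after library scaling) over the 4 libraries, 15 were low, passing the filter on low counts below that level, and 4 were near-silent and did not pass the filter. RCC4 is an established human cell line of clear cell renal cell carcinoma. Bulk populations carried a doxycycline-inducible lentiviral hairpin, either a control hairpin (shCtrl, 2 libraries) or 1 hairpin against PML (shPML, 2 libraries), and both groups received doxycycline at 100 ng/ml for 96 h in medium with tetracycline-free serum. The comparison asked which genes change when the level of PML is lowered in these cells. The methods describe 2 experiments with independent infections. The replicate numbers 1 and 2 were read as these experiments and are called experiment 1 and experiment 2 here, though no label ties a number to an experiment, and every value within an experiment or with the experiment as a block rests on that reading. RNA was poly(A)-selected and sequenced, and the libraries held 27781193 to 69870617 counted reads. The design holds 1 hairpin and 2 libraries a group, and no untransduced cells and no interferon-treated cells were analysed here.

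Interferons are secreted proteins that warn neighbouring cells of a virus. Type I interferons bind the IFNAR1 and IFNAR2 receptor, whose kinases JAK1 and TYK2 phosphorylate STAT2. STAT2 and IRF9 are part of a transcription factor that binds a short DNA element, the interferon-stimulated response element (ISRE), in the promoters of its target genes. The targets bind viral RNA, block membrane fusion, tag proteins with the ubiquitin-like ISG15 or amplify the response, and many are transcribed at a low tonic level in tumour cells that were never given interferon. PML is the scaffold protein of nuclear bodies and is itself an interferon target.

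The response element can be read in the promoters of the members. A reference promoter, 250 bases before to 50 after the transcription start, was found for 34 of the 43 members in RefSeq (GRCh38.p14). The core word GAAANNGAAA, searched on both strands (TTTCNNTTTC on the other), was present in at least 1 promoter of 25 of these 34 genes (73.5%), against 4.38% of the 27305 genes and 3.57% of the 35116 promoters in the same table. A form with 1 base between its GAAA parts, GAAANGAAA, was present in 11 of the 34 and in 3.87% of all genes, and a stretch of repeated GAAA parts can hold letters of both words. The word of the gamma-activated site, TTCNNNGAA, which reads the same on both strands, was present in 10 of the 34 and in 9.38% of all genes. A match is a string of letters and not a measured binding site. The first 7 sequences below belong to the members with the highest mean CPM that held the core word, and the other 5 to members that the results turn on. Each is written 5′ to 3′ along the gene, with the core word in capitals.

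LGALS3BP, minus strand, chr17:78979957-78979996: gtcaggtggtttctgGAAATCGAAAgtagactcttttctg
IFITM3, minus strand, chr11:320871-320927: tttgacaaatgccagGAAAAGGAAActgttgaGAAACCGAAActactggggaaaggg
OAS3, plus strand, chr12:112938316-112938486: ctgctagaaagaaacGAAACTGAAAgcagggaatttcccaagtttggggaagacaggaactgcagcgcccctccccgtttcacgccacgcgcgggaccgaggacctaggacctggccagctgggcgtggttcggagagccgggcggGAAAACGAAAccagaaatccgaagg
BST2, minus strand, chr19:17405730-17405775: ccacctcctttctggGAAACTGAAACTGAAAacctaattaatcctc
DTX3L, plus strand, chr3:122564317-122564356: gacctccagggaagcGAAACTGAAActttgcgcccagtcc
PARP14, plus strand, chr3:122680795-122680834: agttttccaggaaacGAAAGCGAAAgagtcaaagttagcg
IFIT3, plus strand, chr10:89327826-89327899: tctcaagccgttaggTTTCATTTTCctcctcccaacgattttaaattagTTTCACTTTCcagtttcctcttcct
ISG15, plus strand, chr1:1013369-1013414: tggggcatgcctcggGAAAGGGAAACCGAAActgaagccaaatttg
IFIT1, plus strand, chr10:89392492-89392544: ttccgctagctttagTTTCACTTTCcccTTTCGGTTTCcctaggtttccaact
IFIT5, plus strand, chr10:89414508-89414588: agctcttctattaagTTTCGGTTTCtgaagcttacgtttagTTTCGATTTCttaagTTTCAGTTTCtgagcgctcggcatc
IFI6, minus strand, chr1:27672261-27672363: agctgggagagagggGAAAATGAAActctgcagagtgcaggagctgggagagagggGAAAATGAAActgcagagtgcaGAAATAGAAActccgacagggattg
IFI44L, plus strand, chr1:78620269-78620399: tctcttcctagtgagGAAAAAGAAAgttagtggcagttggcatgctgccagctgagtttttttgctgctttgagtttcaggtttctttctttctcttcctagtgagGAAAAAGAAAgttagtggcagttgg

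The genes that carry these words did not all respond alike. ISG15, IFIT1, IFIT3, IFI6, IFI44L and IFITM3 rose upon PML silencing, as described below, while the IFIT5 promoter held 3 copies of the word and its level in shPML differed from that in shCtrl by less than the spread between libraries. DTX3L and PARP9 are transcribed in opposite directions and overlap head to head. The DTX3L word lies at the DTX3L start, inside PARP9, and the same bases read on the minus strand make up the PARP9 word (chr3:122564317-122564356). RSAD2 held the core word in 1 of its reference promoters, and in the other it held 4 copies of the form with 1 base in between. This other promoter lies before the counted RSAD2 gene, which begins at chr2:6877777, and overlaps the start of CMPK2. Within it, at chr2:6865786-6865848, a CMPK2 promoter held 2 copies of the form on the minus strand. The words can therefore not be assigned to RSAD2 alone. All 4 copies are in capitals here.

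RSAD2, plus strand, chr2:6865718-6865848: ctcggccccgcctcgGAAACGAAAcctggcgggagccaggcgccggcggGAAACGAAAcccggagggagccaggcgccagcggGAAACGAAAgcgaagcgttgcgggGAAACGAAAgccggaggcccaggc

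Among the members called higher with the experiment as a block, 12 of 14 with a reference promoter held the core word, and among the other tested members 12 of 18 did.

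**Figure D1:**
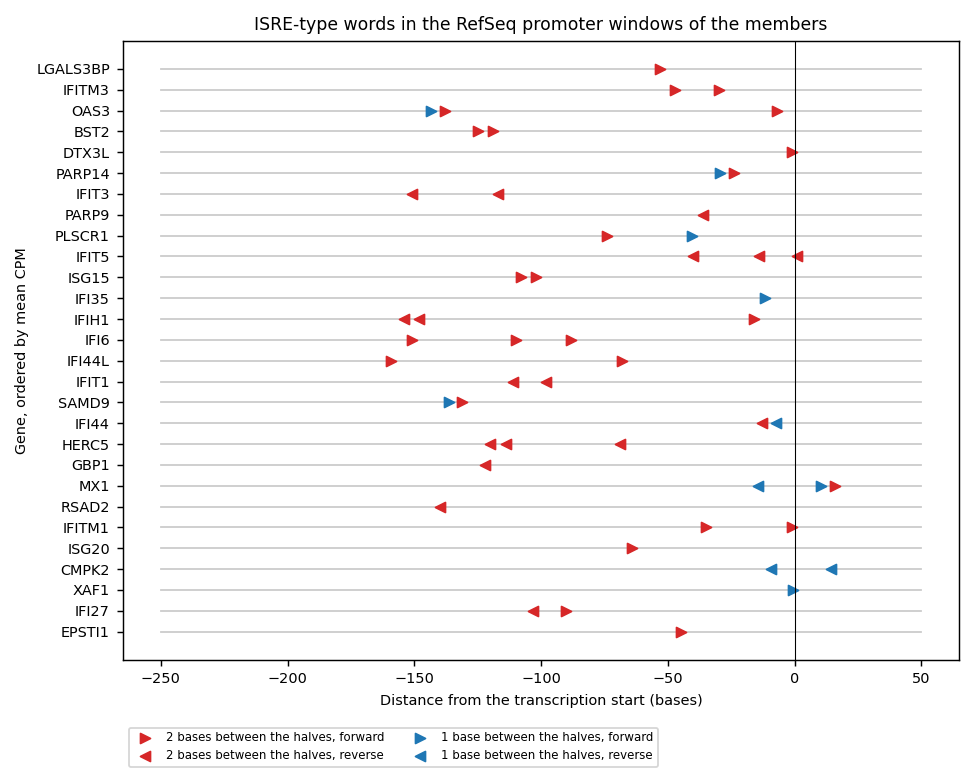
Positions of the ISRE-type words in the reference promoters of the 28 members that hold one, in bases from the transcription start (x axis), with genes ordered by mean CPM (y axis). Red marks the word with 2 bases between its GAAA parts and blue the word with 1 base, and the triangle points along the strand on which the word reads. Most words lie in the 200 bases before the start, in well-expressed and low members alike.

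PML was read first in every library, as the gene the hairpin targets. Its level was 93.1 CPM in shCtrl and 54.9 CPM in shPML in experiment 1, and 136 and 87.6 CPM in experiment 2. Both shPML libraries were therefore below both shCtrl libraries, and PML mRNA fell to 0.589 and 0.644 of the level in the paired control. The log2 fold change was -0.69 ± 0.30 (SE) without a block, which did not pass the test (edgeR, adjusted p = 0.32), and -0.70 ± 0.11 with the experiment as a block, which did (edgeR, adjusted p = 4.19e-07).

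The library shPML replicate 2 stood apart from the others. It held 86 genes above 5 CPM that were under 1 CPM in each of the other 3 libraries, and the same count was 0 for each of those 3. Genes of monocytes and macrophages were prominent there. CD14, the lipopolysaccharide co-receptor of monocytes, reached 42.8 CPM, LYZ, which encodes lysozyme, 85.4 CPM, and CSF1R, the receptor for macrophage growth factor, 26.6 CPM. The summed level of 18 monocyte and macrophage markers was 3.44 CPM in shCtrl replicate 1, 3.95 CPM in shCtrl replicate 2, 3.75 CPM in shPML replicate 1 and 388 CPM in shPML replicate 2. Every 1 of the 18 was highest in that library, and the 10 haematopoietic markers summed to 117 CPM there against 2.38 to 2.85 CPM elsewhere. Among the latter, NKG7, a gene of natural killer and cytotoxic T cells, was at 7.97 CPM in that library and 0 in the others, and the T cell gene CD3E was at 0 in all 4. PECAM1, found on endothelial and myeloid cells, reached 4.11 CPM there and at most 0.0418 CPM elsewhere. All 8 markers of renal epithelium and clear cell carcinoma were well expressed. Over the 4 libraries PAX8 was at 302 to 427 CPM, PAX2 at 27.8 to 69.6 CPM and KRT8 at 348 to 518 CPM. The 18 genes were chosen after this library had been seen. Myeloid cells express many interferon-stimulated genes, so the counts over the members and the values of the members and of the pathway genes described in full are given below within experiment 1, which does not use this library, as well as over all 4 libraries. The part of the marker RNA in the results of experiment 2 was not tested. In bulk RNA a change in the share of a cell type and a change in RNA per cell cannot be told apart.

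**Figure D2:**
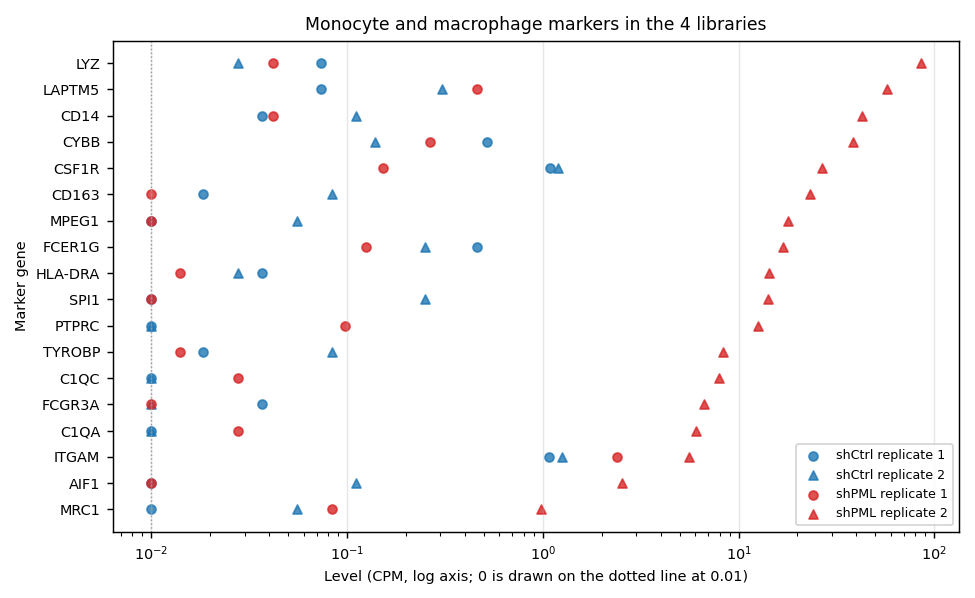
Level of 18 monocyte and macrophage markers in each library (CPM, log axis, with 0 drawn on the dotted line). Circles are experiment 1 and triangles experiment 2, blue is shCtrl and red is shPML. All red triangles, shPML replicate 2, lie to the right of the other 3 libraries, whose summed levels are 3.44 to 3.95 CPM against 388 CPM.

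Upon PML silencing the members moved predominantly upwards. In experiment 1 alone, 32 of the 39 tested members had a higher level in shPML, 20 of the 39 (51.3%) exceeded a log2 ratio of 0.5 and 0 fell below -0.5. Over all 16516 genes tested, 14.2% exceeded 0.5 and 17.5% fell below -0.5 in that experiment, which has 1 library a condition and no replicate check. The 20 members comprised 12 well-expressed and 8 low genes, and each of the 20 also exceeded 0.5 in experiment 2, where 27 members did. IFITM2, which passed the filter on low counts only through the shPML libraries, is among the 32, the 20 and the 27. Its place in these counts is therefore no evidence of a rise. The median log2 ratio of the 39 members was 0.54 in experiment 1 and 1.03 in experiment 2, with medians of all genes tested at 0.00155 in the first and within rounding of 0 in the other. Ratios within an experiment were computed with a prior count of 2.

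Over all 4 libraries the outcome of the test depended on whether the experiment entered the model. Without a block, 0 of the 39 members met the edgeR call rule, which asks for an adjusted p under 0.05 together with a log2 fold change larger than 0.5 in size, while 21 of them, all higher, had an unadjusted p under 0.05, against 7.8% of all genes that did so and were higher. That fit called 0.0787% of all genes higher and 0.333% lower, and DESeq2 without a block called 15 members and 3.5% of all genes higher. With the experiment as a block, edgeR called 21 of the 39 members higher (53.8%) and 0 lower, against 8.57% of all genes called higher and 10.5% called lower. DESeq2 with the block called 18 members and 6.67% of all genes higher, and these 18 were among the 21. The 3 others were USP18, OAS2 and IFITM2, of which IFITM2 was given no adjusted p by DESeq2 and reached the filter on low counts in no shCtrl library, so that 20 of 38 were called without it. Of the 21 members, 20 had exceeded 0.5 in experiment 1, and the exception was MX1. Of the 18 members that were not called, 0 exceeded 0.5 in experiment 1. The blocked fit uses the libraries of experiment 1 and the same threshold, so these counts are no independent check of the calls. IFITM2 is also in the count of members at an unadjusted p under 0.05 without a block. In the passages that follow, a gene is said to have risen only where the blocked edgeR fit called it. The smallest adjusted p of a member without the block was 0.0634, for IFITM3.

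Counts of libraries gave the same direction. Both shPML libraries lay above both shCtrl libraries for 29 of 39 members (74.4%), against 23.1% of all genes tested, and below them for 0 members. Within both experiments 30 of 39 members were higher in shPML (76.9%), against 37.3% of all genes, and 1 member, GBP1, was lower in both. IFITM2, which passed the filter only through the shPML libraries, is among the 29 and the 30. When shPML replicate 2 was left out, 37 of 39 members had a log2 fold change above 0, 16 (41.0%) had an unadjusted p under 0.05 and were higher, against 4.82% of all genes, and edgeR called 0. The fit with the block cannot be made without that library, since experiment 2 would then hold 1 library. The share of all genes with a log2 fold change above 0 without shPML replicate 2 was not computed.

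Members differed in size of change more than in direction. The 24 well-expressed members had a median log2 fold change of 0.55 over all libraries and 0.49 in experiment 1, and the 15 low members had medians of 1.71 and 0.57. The class rests on the mean over all 4 libraries, shPML included. IFI6, IFIT2, IFI44, IFIT1 and IFI44L averaged 5.70 to 8.13 CPM in shCtrl and reached a mean of 10 CPM only through shPML. The medians by class therefore depend in part on the change itself. The log2 ratios of the 39 tested members in the 2 experiments had a Spearman's rho of 0.723, against 0.604 across all genes tested. Those of the 24 well-expressed members had a rho of 0.908. No rho was computed for other genes of like level, so the part of expression level in this value was not tested. These are values across genes from 2 pairs of libraries and genes are not independent replicates. The ratio was larger in experiment 2 for 36 of 39 members. The control libraries also differed and 31 of 39 members were higher in shCtrl replicate 1 than in shCtrl replicate 2. The like shares over all genes tested were not computed. These 2 counts therefore cannot be told apart from a general difference between the libraries.

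**Figure D3:**
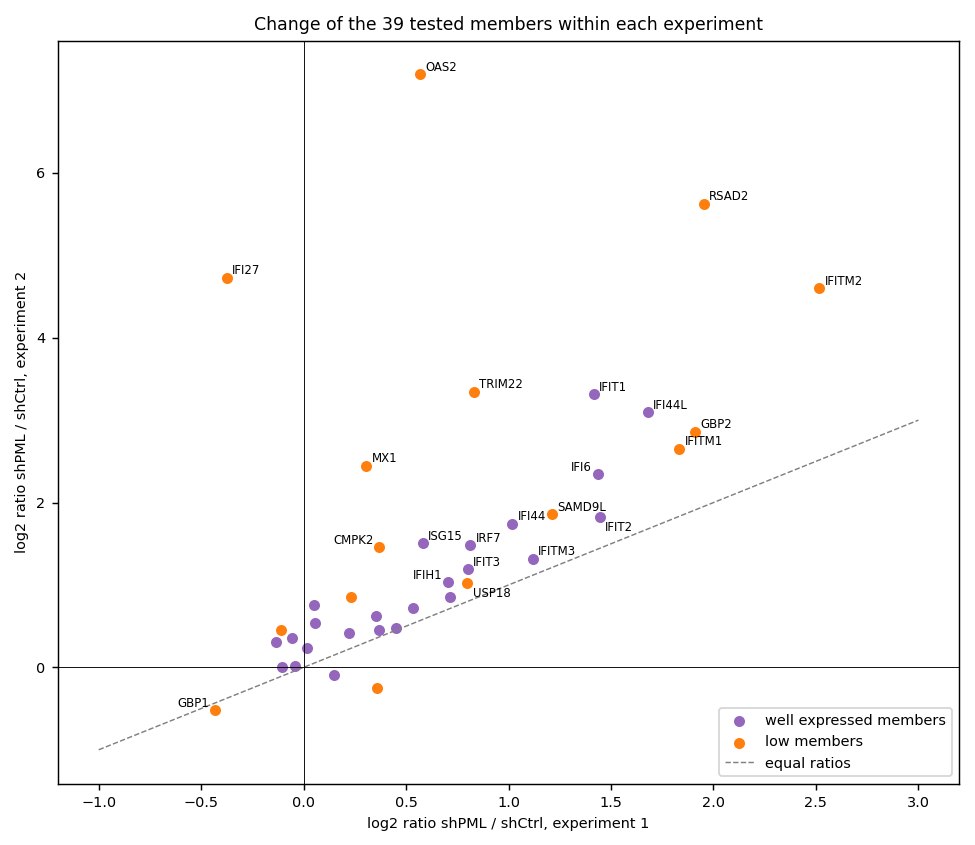
Log2 ratio of shPML over shCtrl in experiment 1 (x axis) and experiment 2 (y axis) for the 39 tested members, with well-expressed members in purple and low members in orange. The dashed line marks equal ratios, and 36 of 39 points lie above it, a count with no share over all genes beside it. The ratios of OAS2 and IFITM2 in experiment 2 depend on the prior count, since their control library held 0 reads.

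Per length, LGALS3BP was the most abundant member. Its level in CPM divided by gene length in kilobases (RPKM) was 307 in shCtrl and 408 in shPML, averaged over 2 libraries. BST2 followed in shCtrl at 127 RPKM, ahead of IFITM3 at 105 RPKM, whereas in shPML IFITM3 stood at 246 RPKM and BST2 at 138 RPKM. The spread of BST2 between the shCtrl libraries, 147 and 108 CPM, was large enough that the order of these genes in shCtrl does not stand beyond it. ISG15, UBE2L6, STAT2, DTX3L, IFI35, PLSCR1, OAS3, IFIT3 and IRF1 lay between 10.5 and 23.5 RPKM in shCtrl.

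**Figure D4:**
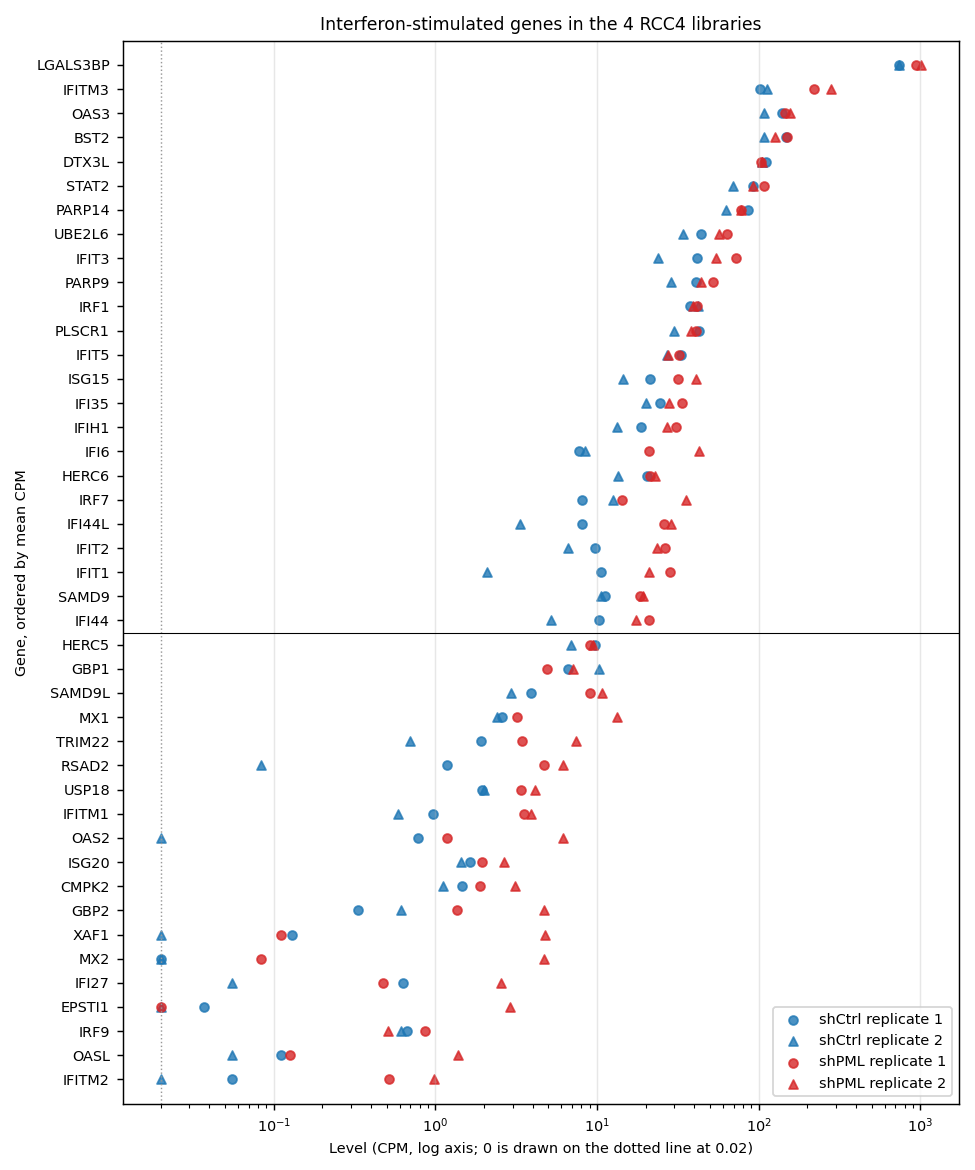
Level of each of the 43 members in the 4 libraries (CPM, log axis, with 0 drawn on the dotted line), ordered by mean CPM; the horizontal line separates means above and below 10 CPM. Circles are experiment 1 and triangles experiment 2, blue is shCtrl and red is shPML. For IFITM3, IFI6, IFIT2 and IFI44L both red points lie to the right of both blue points, for DTX3L and IFIT5 the colours mix, and XAF1, MX2, EPSTI1 and OASL stand out only through the red triangle.

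Among the IFIT genes, which encode RNA-binding proteins with tetratricopeptide repeats and lie next to each other on chromosome 10, 3 of 4 rose and 1 did not. IFIT1, which binds viral RNA lacking the methylated cap of cellular mRNA, measured 10.6 CPM in shCtrl and 28.2 CPM in shPML in experiment 1, and 2.08 and 21.1 CPM in experiment 2. Its level in shCtrl replicate 2 was 0.197 of that in shCtrl replicate 1, so the ratio of 10.1 in experiment 2, against 2.67 in experiment 1, was taken over a lower control. With the block its log2 fold change was 2.20 ± 0.20 (edgeR, adjusted p = 7.68e-14). Without a block it was 1.95 over all libraries, 2.15 without shPML replicate 2, 3.56 without shCtrl replicate 1 and 1.22 without shCtrl replicate 2. IFIT2, known to promote apoptosis, measured 9.68 and 26.4 CPM in experiment 1 and 6.58 and 23.4 CPM in experiment 2. The shPML libraries were 2.73 and 3.56 times the paired control, and the blocked log2 fold change was 1.63 ± 0.15 (edgeR, adjusted p = 8.2e-14). IFIT3, the partner that stabilises IFIT1, went from 41.4 to 72.2 CPM in experiment 1 and from 23.9 to 54.6 CPM in experiment 2, a blocked log2 fold change of 0.99 ± 0.12 (edgeR, adjusted p = 1.34e-09). Without a block it was 0.96 over all libraries and 0.61 without shCtrl replicate 2. IFIT5, separated from IFIT1 by 8080 bases, measured 33.1 and 32.1 CPM in experiment 1 and 27.2 and 27.5 CPM in experiment 2. Its blocked log2 fold change was -0.01 ± 0.12, and the shPML levels overlapped those of shCtrl. IFIT2 shares 8.74% of its exon bases with another gene on the same strand, AL353751.1, so reads there could not be assigned to 1 of them.

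Of the 4 membrane factors that keep enveloped viruses from fusing or leaving, IFITM3 and BST2 were well expressed and IFITM1 and IFITM2 low, and IFITM3 and IFITM1 rose. IFITM3, which sits in endosomes and blocks viral fusion, measured 102 and 221 CPM in experiment 1 and 112 and 278 CPM in experiment 2. The groups did not overlap, and the log2 fold change was 1.22 ± 0.18 without a block and 1.22 ± 0.10 with it (edgeR, adjusted p = 3.72e-15). IFITM1, which acts at the plasma membrane, measured 0.961 and 3.53 CPM in experiment 1 and 0.583 and 3.89 CPM in experiment 2, with a blocked log2 fold change of 2.27 ± 0.40 (edgeR, adjusted p = 5.61e-06). IFITM2 was counted 3 and 37 times in experiment 1 and 0 and 27 times in experiment 2. It passed the filter on low counts only through the shPML libraries where it is high, so its call with the block (edgeR, adjusted p = 9.21e-04) is no evidence of a rise, and its fold change depends on the prior count. The IFITM genes are close copies, and 17.9% of the 100-base words of IFITM1, 6.81% of those of IFITM2 and 8.26% of those of IFITM3 also occur in transcripts of other genes, so that some reads could have been split or dropped. Reads of IFITM3 and of an antisense gene overlapping 28.3% of its exon bases, AC136475.5, counted at 0 in every library, can be told apart only where counting used strand. BST2, or tetherin, which holds budding virus particles at the cell surface, measured 147 and 149 CPM in experiment 1 and 108 and 127 CPM in experiment 2, and its blocked log2 fold change of 0.12 ± 0.10 did not pass the test (edgeR, adjusted p = 0.409).

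ISG15 and the enzymes that attach and remove it gave 3 rises among 5 genes. ISG15, a ubiquitin-like protein, measured 21.2 and 31.7 CPM in experiment 1 and 14.4 and 41.1 CPM in experiment 2. The ratio was 1.498 in experiment 1 and 2.85 in experiment 2, the groups did not overlap, and the blocked log2 fold change was 1.03 ± 0.14 (edgeR, adjusted p = 2.69e-08). UBE2L6, the conjugating enzyme that carries ISG15, measured 43.99 and 63.8 CPM in experiment 1 and 34.1 and 56.4 CPM in experiment 2, with a blocked log2 fold change of 0.63 ± 0.12 (edgeR, adjusted p = 2.07e-05). USP18, the protease that removes ISG15 and dampens receptor signalling, measured 1.94 and 3.40 CPM in experiment 1 and 2.0 and 4.11 CPM in experiment 2, a blocked log2 fold change of 0.92 ± 0.33 (edgeR, adjusted p = 0.0284). DESeq2 with the block did not call it (adjusted p = 0.12). Transcripts of other genes hold 15.5% of the 100-base words of USP18. HERC5, the main ligase for ISG15, was at 6.86 to 9.74 CPM and did not pass the test. HERC6, a related ligase, measured 20.5 and 21.2 CPM in experiment 1 and 13.4 and 22.7 CPM in experiment 2. Its blocked log2 fold change of 0.39 ± 0.14 stayed under 0.5 (edgeR, adjusted p = 0.0309), and the experiment 1 libraries differed by a ratio of 1.04.

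The transcription factors of the pathway gave 1 rise among 4. IRF7, which amplifies the production of interferon, measured 8.09 and 14.3 CPM in experiment 1 and 12.6 and 35.2 CPM in experiment 2. The blocked log2 fold change was 1.15 ± 0.15 (edgeR, adjusted p = 4.87e-09), and the value without a block moved from 1.25 with all libraries to 0.48 without shPML replicate 2, while the ratio within experiment 1 was 1.76. STAT2, the subunit specific to type I and type III signalling, measured 92.1 and 108 CPM in experiment 1 and 69.2 and 92.2 CPM in experiment 2, so that shCtrl replicate 1 and shPML replicate 2 were at the same level. Its blocked log2 fold change of 0.32 ± 0.11 had an edgeR adjusted p of 0.0209 and stayed under the threshold of 0.5. IRF1, which responds chiefly to interferon gamma, measured 37.4 and 41.4 CPM in experiment 1 and 41.9 and 39.1 CPM in experiment 2 and changed direction between experiments. The IRF1 promoter lacked the ISRE core word and held TTCNNNGAA, in capitals here.

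IRF1, minus strand, chr5:132490874-132490912: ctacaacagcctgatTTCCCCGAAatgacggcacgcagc

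IRF9 was counted 14 to 62 times a library. It shares 87.8% of its exon bases with AL136295.5 on the same strand, so reads in the shared part cannot be assigned to 1 gene and its low level is uncertain.

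Of the sensors and oligoadenylate synthetases, IFIH1 rose, OAS3 did not, and the call of OAS2 differed between tools. IFIH1, or MDA5, a helicase that senses long double-stranded RNA, measured 18.8 and 30.7 CPM in experiment 1 and 13.3 and 27.2 CPM in experiment 2. The groups did not overlap and the blocked log2 fold change was 0.86 ± 0.13 (edgeR, adjusted p = 4.02e-07). OAS3, which makes oligoadenylates when it binds double-stranded RNA, measured 139 and 145 CPM in experiment 1 and 107 and 156 CPM in experiment 2, and its blocked log2 fold change of 0.30 ± 0.11 stayed under 0.5 (edgeR, adjusted p = 0.0289). OAS2 was counted 42 and 84 times in experiment 1 and 0 and 169 times in experiment 2. It passed the edgeR test with the block (adjusted p = 5.42e-04) and not DESeq2 with the block (adjusted p = 0.255), and the ratio within experiment 1 was 1.51. Without a block its log2 fold change was 3.14 over all libraries, 1.54 without shPML replicate 2 and 10.3 without shCtrl replicate 1, and these depend on the prior count.

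The genes of unknown or varied function held the largest change among well-expressed members in both edgeR fits, that of IFI44L. Its mean in shCtrl was 5.70 CPM, so it entered that class only through its shPML libraries. IFI44L measured 8.07 and 25.96 CPM in experiment 1 and 3.33 and 28.8 CPM in experiment 2, and its neighbour IFI44, 3685 bases further on, measured 10.3 and 20.9 CPM and 5.17 and 17.3 CPM. Both encode antiviral proteins whose mechanism is poorly known. The shPML libraries were 3.21 and 8.64 times the paired control for IFI44L and 2.03 and 3.36 times for IFI44, with blocked log2 fold changes of 2.32 ± 0.18 (edgeR, adjusted p = 1.88e-16) and 1.35 ± 0.16 (adjusted p = 7.66e-10). IFI6, a mitochondrial protein that counters apoptosis, measured 7.74 and 21.0 CPM in experiment 1 and 8.36 and 42.6 CPM in experiment 2. Its controls were alike and the ratios were 2.71 and 5.09, with a blocked log2 fold change of 1.88 ± 0.15 (edgeR, adjusted p = 1.08e-15). Without a block the log2 fold change of IFI6 was 1.977 over all libraries and 1.393 without shPML replicate 2. SAMD9 and SAMD9L, adjacent genes whose products restrict poxviruses and translation, rose together. SAMD9 measured 11.3 and 18.5 CPM in experiment 1 and 10.6 and 19.2 CPM in experiment 2, a blocked log2 fold change of 0.79 ± 0.15 (edgeR, adjusted p = 2.05e-05). SAMD9L measured 3.88 and 9.05 CPM and 2.92 and 10.7 CPM, a blocked log2 fold change of 1.53 ± 0.23 (edgeR, adjusted p = 1.65e-07). TRIM22, a ubiquitin ligase of the tripartite motif family to which PML also belongs, measured 1.90 and 3.42 CPM in experiment 1 and 0.694 and 7.42 CPM in experiment 2. It rose with a blocked log2 fold change of 2.01 ± 0.38 (edgeR, adjusted p = 2.37e-05), and the ratio was 1.80 in experiment 1 against 10.7 in experiment 2. Without a block the log2 fold change of TRIM22 was 2.035 over all libraries and 1.385 without shPML replicate 2.

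LGALS3BP, IFI35 and PLSCR1 were well expressed and did not pass the threshold on size. LGALS3BP, a secreted galectin-binding glycoprotein, measured 733 and 945 CPM in experiment 1 and 741 and 1014 CPM in experiment 2. Its groups did not overlap, and the blocked log2 fold change of 0.41 ± 0.09 (edgeR, adjusted p = 2.42e-04) was under 0.5, with ratios of 1.29 and 1.37. IFI35 measured 24.3 and 33.3 CPM in experiment 1 and 19.9 and 27.7 CPM in experiment 2, with a blocked log2 fold change of 0.46 ± 0.13 (edgeR, adjusted p = 0.00314). PLSCR1, a phospholipid scramblase, measured 42.4 and 40.7 CPM in experiment 1 and 29.9 and 38.3 CPM in experiment 2, and the groups overlapped.

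DTX3L and PARP9, which share the word shown above, and PARP14 on the same chromosome were well expressed, and 0 of these 3 genes rose. DTX3L, a ubiquitin ligase, measured 111 and 103 CPM in experiment 1 and 105 and 105 CPM in experiment 2. PARP9, its partner, measured 41.1 and 52.5 CPM and 28.7 and 44.1 CPM. The blocked log2 fold changes were -0.05 ± 0.11 for DTX3L (edgeR, adjusted p = 0.769) and 0.48 ± 0.12 for PARP9 (edgeR, adjusted p = 0.00124), the latter under 0.5. The difference between these genes, which share 139 exon bases on opposite strands, was not tested. PARP14, a mono-ADP-ribosyltransferase 105635 bases beyond DTX3L, measured 85.8 and 78.1 CPM in experiment 1 and 63.0 and 78.0 CPM in experiment 2, lower in shPML in experiment 1 and higher in experiment 2.

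The dynamin-like GTPases, which assemble on viral capsids or vacuoles, were low. GBP1 was the only tested member to be lower in shPML in both experiments, at 6.65 and 4.91 CPM in experiment 1 and 10.3 and 7.13 CPM in experiment 2. Its blocked log2 fold change was -0.48 ± 0.21 and did not pass the test (edgeR, adjusted p = 0.0744), and shCtrl replicate 1 lay below shPML replicate 2. Its neighbour GBP2 was counted 18 and 98 times in experiment 1 and 22 and 129 times in experiment 2 and rose with a blocked log2 fold change of 2.50 ± 0.47 (edgeR, adjusted p = 1.85e-05). Without a block its log2 fold change was 2.68 over all libraries and 1.56 when shPML replicate 2 was left out. MX1, which traps viral nucleocapsids, measured 2.59 and 3.21 CPM in experiment 1 and 2.42 and 13.3 CPM in experiment 2. It passed the test with the block, at a log2 fold change of 1.37 ± 0.31 (edgeR, adjusted p = 2.53e-04), but the ratio in experiment 1 was 1.24, and without shPML replicate 2 the log2 fold change without a block was 0.37 against 1.71 with it.

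Among enzymes acting on nucleotides and RNA, RSAD2 rose and the other 2 did not. RSAD2, or viperin, which makes a chain-terminating nucleotide, was counted 64 and 337 times in experiment 1 and 3 and 169 times in experiment 2. The level in experiment 1 was 1.18 and 4.70 CPM, a ratio of 3.98, and the blocked log2 fold change was 3.32 ± 0.45 (edgeR, adjusted p = 1.56e-08). Without a block it was 3.04 over all libraries and 5.97 without shCtrl replicate 1. CMPK2, a mitochondrial nucleotide kinase transcribed away from RSAD2 with 11957 bases between them, measured 1.46 and 1.90 CPM in experiment 1 and 1.11 and 3.13 CPM in experiment 2, with a blocked log2 fold change of 0.91 ± 0.41 (edgeR, adjusted p = 0.0881). IFI27, a small membrane protein, was counted 34 times in both libraries of experiment 1 and 2 and 70 times in experiment 2. Its level went down in experiment 1, from 0.628 to 0.474 CPM, and up in experiment 2, from 0.0556 to 2.55 CPM, and it did not pass the test (edgeR, blocked adjusted p = 0.072). The 3 low members not given in full, ISG20, HERC5 and IRF9, had blocked log2 fold changes of 0.54, 0.16 and 0.09 and did not pass. Their log2 ratios in experiment 1 were 0.23, -0.11 and 0.36.

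**Figure D5:**
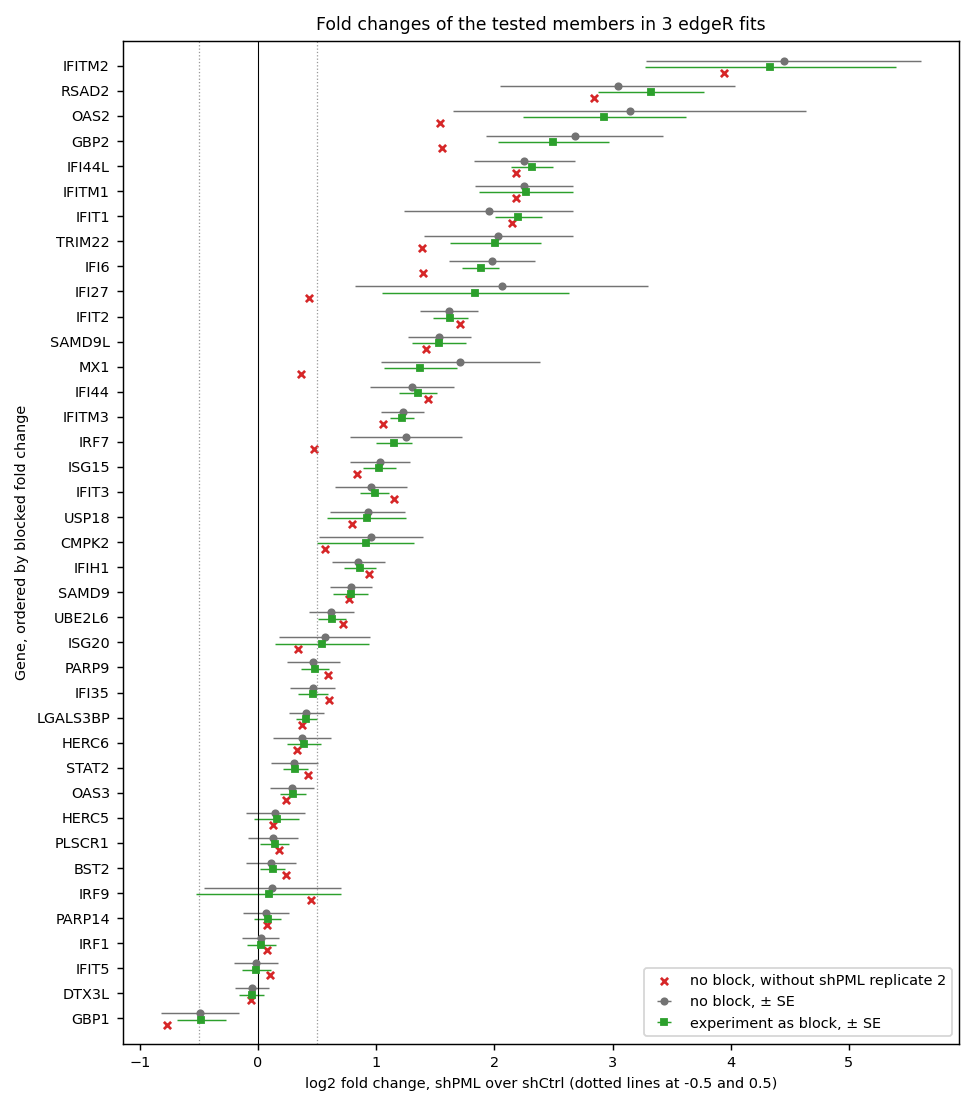
Log2 fold change of shPML over shCtrl (x axis) for the 39 tested members, ordered by the blocked value, in 3 edgeR fits: without a block (grey circles ± SE), with the experiment as a block (green squares ± SE) and without shPML replicate 2 (red crosses). The dotted lines mark -0.5 and 0.5. The crosses of MX1, OAS2, GBP2, IFI27, IRF7, TRIM22 and IFI6 lie to the left of their circles, and those of IFIT1, IFIT2, IFITM1, IFI44 and IFI44L lie near them.

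The 4 near-silent members were read mainly in the library with the myeloid markers. MX2, a GTPase that restricts retroviruses, was counted 0 and 6 times in experiment 1 and 0 and 129 times in experiment 2, shCtrl first. XAF1, which promotes apoptosis, was counted 7 and 8 times in experiment 1 and 0 and 131 times in experiment 2. EPSTI1 was counted 2 and 0 times and 0 and 79 times, and OASL, a protein related to the oligoadenylate synthetases, 6 and 9 times and 2 and 38 times. In experiment 1 these genes were at or under 0.129 CPM in both libraries, and no fold change was fitted to them. XAF1 overlaps the antisense gene PRAL over 69.9% of its exon bases, and PRAL was counted at 0 in every library.

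The genes upstream of the members were read from lists of the pathway. Of 21 interferon ligand genes, 0 passed the filter, and 19 were at 0 counts in all 4 libraries, where 3 counts correspond to 0.0418 to 0.109 CPM. IFNB1 was counted 3 times, in shPML replicate 1 only, and IFNE reached 0.0976 CPM. Of 11 tested receptors, kinases and inhibitors, 2 rose with the block (18.2%) and 0 fell, against 8.57% and 10.5% of all genes. JAK1, the kinase of the receptor, measured 377 and 568 CPM in experiment 1 and 361 and 515 CPM in experiment 2, a blocked log2 fold change of 0.55 ± 0.09 (edgeR, adjusted p = 3.39e-06). SOCS3, a feedback inhibitor of cytokine receptors, measured 16.3 and 28.3 CPM and 22.1 and 46.6 CPM, a blocked log2 fold change of 0.93 ± 0.13 (edgeR, adjusted p = 2.06e-08). SOCS1 and IFNLR1 had blocked log2 fold changes of 0.83 and -0.67, against log2 ratios of 0.62 and -0.41 in experiment 1, and did not pass.

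Of 14 tested sensors and adapters of foreign nucleic acid, 4 rose (28.6%) and 1 fell with the block, against 8.57% and 10.5% of all genes. IFI16, a nuclear DNA sensor that is itself induced by interferon, measured 74.3 and 159 CPM in experiment 1 and 53.1 and 124 CPM in experiment 2, with ratios of 2.14 and 2.33 and a blocked log2 fold change of 1.16 ± 0.11 (edgeR, adjusted p = 1.6e-13). TMEM173, which encodes the adapter STING, and DHX58, a helicase related to MDA5, rose by 0.78 and 1.08 on the log2 scale, with ratios of 1.52 and 1.67 in experiment 1. CGAS, the enzyme that makes the messenger for STING, measured 29.9 and 19.8 CPM in experiment 1 and 43.4 and 27.6 CPM in experiment 2 and fell by 0.62 on the log2 scale (edgeR, blocked adjusted p = 5.51e-05). Of 7 tested nuclear body genes known to respond to interferon, 1 fell, PML itself, and 0 rose. SP100 and SP110 had blocked log2 fold changes of 0.37 and 0.37, under the threshold of 0.5, and log2 ratios of 0.40 and 0.34 in experiment 1.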

How the data were processed

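RNA-seq of RCC4 cells gave 4 libraries, 2 shCtrl and 2 shPML. The authors deposited raw counts per gene. Per the submitters' notes, reads were trimmed with Trimmomatic 0.39, aligned with STAR and counted with featureCounts 1.6.4, and coordinates are on GRCh38. The Gencode release and the strand setting of the counting are not given in the sources used here. Labels of 2 samples were exchanged in the first submission, and groups follow the submitters' later version. Columns without a replicate number were taken as replicate 1.

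The 43 members with a row were read from fits over all 16516 genes that passed filterByExpr. The test was the edgeR 4.0.16 quasi-likelihood test with TMM scaling and no block (R 4.3.3), with Benjamini-Hochberg adjustment over all genes tested. CPM values are counts scaled by the TMM library size. The call rule asked for both an adjusted p under 0.05 and a change of more than 0.5 on the log2 scale. A blocked fit treated the replicate number as the experiment, since the methods describe 2 experiments with independent infections. No label ties a number to an experiment, and the deviations of the replicate 1 libraries from their group means correlated at 0.546. DESeq2 1.42.0, other filters and scalings, and leaving out each library were tried as alternatives. With 2 libraries a group an exact permutation test cannot go below p = 0.333, so none was used. Scripts were tested on simulated data. Without a block, p-values measure the spread between 2 libraries a group, read as 2 infections of 1 cell line. With the block, the difference between the experiments is taken out, and they measure only the spread that remains. The common dispersion, edgeR's measure of spread shared across genes, was 0.0813 without the block and 0.0137 with it. Depth was 27781193 to 69870617 counts a library, and intervals from counts would cover counting error only.

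Text names PML, every member with a mean of at least 10 CPM, the other tested members with an unadjusted p under 0.05 in either edgeR fit, near-silent members by count, and up to 4 genes of each pathway list with the largest change. The members and lists were chosen with earlier results of these data known, and 18 myeloid markers were added after the values had been seen. Promoters came from RefSeq (GRCh38.p14), and for 9 members no entry was matched.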

Additional observations from a re-analysis of the deposited data

How the results depend on the processing

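The edgeR fit without a block called 0 members, 13 genes higher and 55 lower. The fit with the experiment as replicate block called 21 members, 1415 genes higher and 1735 lower. DESeq2 called 15 members, 578 genes higher and 894 lower, and DESeq2 with the block 18 members, 1102 and 1384 genes. Without a filter on low counts, over 30093 genes and the 43 members with a row, edgeR called 23 members, 891 and 946 genes. Of these 23, 20 were among the 39 tested members. The others were near-silent members, which were read mainly in shPML replicate 2. With at least 10 counts in every library it called 1 member, 53 and 144 genes. With RLE scaling it called 0 genes in both directions, at a smallest adjusted p of 0.0501 where 1352 higher and 1615 lower genes had an unadjusted p under 0.05, against 0.0484, 1289 and 1669 with TMM. The log2 fold change of PML passed at -0.70 with the block, -0.69 in DESeq2 with the block (adjusted p = 4.11e-07) and -0.68 without a filter (adjusted p = 0.0237). The median of the well-expressed members was 0.36 from 20 CPM, and that of all tested members was 0.54 in experiment 1 alone, an alternative chosen after seeing the data.

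Leaving out each library in turn gave 1 to 11 genes higher, 0 to 29 lower and 0 to 3 members higher, with a median of the well-expressed members of 0.43 to 0.78. The 0 was without shPML replicate 1, where 1381 genes were lower at an unadjusted p under 0.05 (edgeR). Log2 fold changes close to 0 changed sign in this step for IRF1 (-0.057 to 0.11), IFIT5 (-0.15 to 0.13), BST2 (-0.10 to 0.36), HERC5 (-0.082 to 0.42), PARP14 (-0.14 to 0.31), PLSCR1 (-0.10 to 0.40) and IRF9 (-0.33 to 0.45). Of the single members' values under the alternatives, 298 stayed on the same side of the threshold, 78 passed it where the fit without a block did not, and 10 changed sign. The cause of these differences was not tested. Depth limits the low members, and OAS2, IFITM2, RSAD2 and IFI27 held 0 to 3 reads in shCtrl replicate 2.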
